A study of Mus musculus with 4 samples.

Results

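The cytosolic ribosomal protein genes were followed in mouse acute myeloid leukemia cells with and without the Tet2 knockout label. Members were the table's gene symbols that begin with Rpl or Rps followed by a number (with an optional a, x or l), together with Rplp0, Rplp1, Rplp2 and Rpsa. The rule found 84 of 24497 gene entries, 51 of the large ribosomal subunit and 33 of the small subunit, and it used no measured value. The cells were leukemic cells that carry NRAS and AE9a (AML1-ETO9a, a shortened fusion protein that drives leukemia in mice), and they were derived from hematopoietic stem cells of bone marrow. The WT group came from wild-type mice and the other from Tet2-/- mice that lack exons 8 to 10 of Tet2, whose product oxidises 5-methylcytosine in DNA. No strain, age or sex was used here, and the labels name no treatment. Both groups were cultured with SCF (50 ng/ml), IL-3 and IL-6 (10 ng/ml) under G418 (1 mg/mL) and puromycin (2 µg/mL). Each group had 2 libraries of stranded messenger RNA sequencing. The labels do not say whether these came from separate cultures or mice, so p-values measure the spread between libraries, which may be technical.

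Ribosomal proteins assemble with ribosomal RNA in the nucleolus into a small subunit, which reads the messenger RNA, and a large subunit, which joins amino acids. Their mRNAs are among the most abundant of a growing cell, and many begin with a run of pyrimidines, the terminal oligopyrimidine (TOP) motif, through which mTOR and Larp1 control their translation. Loss of a single copy of some of these genes impairs red cell formation, as in Diamond-Blackfan anemia, and several are deleted or mutated in blood cancers.

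Values are TPM, transcript abundances that are corrected for transcript length and add up to 1000000 in each library. The number of reads is unknown from such values. Tet2 itself was at 35.05 and 39.95 TPM in the WT libraries and at 53.5 and 52.8 TPM in those labelled knockout. A value for the whole gene cannot check a deletion of 3 exons, and directions are therefore given between libraries by their labels. All 11 markers of myeloid leukemia cells, among them Ptprc, Spi1, Mpo and Cd34, reached 1 TPM in at least 2 libraries. So did 2 of 6 erythroid markers (summed level 136 to 142 TPM in WT and 203 to 234 in the group labelled knockout, nearly all from Hbb-bt, with Klf1 between 0.17 and 0.52 TPM), 0 of 5 T cell markers, 1 of 5 B cell markers (Cd79b, with Ms4a1 listed at 0) and 1 of 6 stromal and endothelial markers (Pdgfrb). A list of 30 granulocyte maturation genes held 6.53% and 6.46% of all TPM in WT but 3.64% and 3.66% in the knockout-labelled libraries. Of its genes 26 were called lower, against 11.6% of all genes, 3 did not pass and Mpo was called higher. ERCC spike-in RNAs, added in known amounts, held 2.98% and 3.30% of all TPM in WT and 3.41% and 3.39% in the group labelled knockout. TPM are shares of a fixed total, so these shifts bear on the level of every member. Values under other totals follow the deposited ones.

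Ribosomal protein mRNAs took a larger share of the transcriptome in the knockout-labelled cells. The 84 members together held 14.7% and 14.0% of all TPM in the WT libraries and 16.5% and 16.7% in the knockout-labelled libraries. The groups did not overlap, and their means were 14.3% ± 0.512 and 16.6% ± 0.174 (SD, n = 2), a ratio of 1.16. In bulk RNA, a larger share can come from other cells in the sample or from more RNA per cell, and these cannot be told apart. Of the 80 members that reached 1 TPM in at least 2 libraries, 56 rose (limma, adjusted p under 0.05), against 18.9% of all 11837 genes tested. Another 22 did not pass, and 2, Rpl39l and Rps4l, were called lower, against 11.6% of all genes. That pair reached the filter only through the WT libraries, which fixed the direction, so nothing is read from their count. The change was positive for 77 of the 80 members and for 58.8% of all genes, and the median change was 0.21 on the log2(TPM + 1) scale for members and 0.04 for all genes.

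The separation between groups was nearly complete even for members that did not pass. Both knockout-labelled libraries were above both WT libraries for 74 of the 80 members, which held for 42.2% of all genes. For 3 members (Rpl39l, Rps4l and Rpl3l) both were below, which held for 26.5% of all genes, and for 3 the groups overlapped. The members below reached the filter only through the WT libraries, which fixed their direction, so nothing is read from their count. For all genes the groups were apart in either direction in 68.6%. The number of calls rested on having both knockout-labelled libraries. Without replicate 1 of that group, 3 members rose (Rpl3, Rpl17 and Rpl39) with 4.22% of all genes, and without its replicate 2, 3 members rose (Rpl3 and Rpl22 among them) with 4.29% of all genes. These member counts are near the share of all genes called in the same fits. The lone library left in the group is then assumed to vary like the WT group. The median change of the members was 0.22 and 0.20 in these fits. Without WT replicate 1, 73 members rose, with 11.1% of all genes, and without WT replicate 2, 52 did, with 16.1%.

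**Figure D1:**
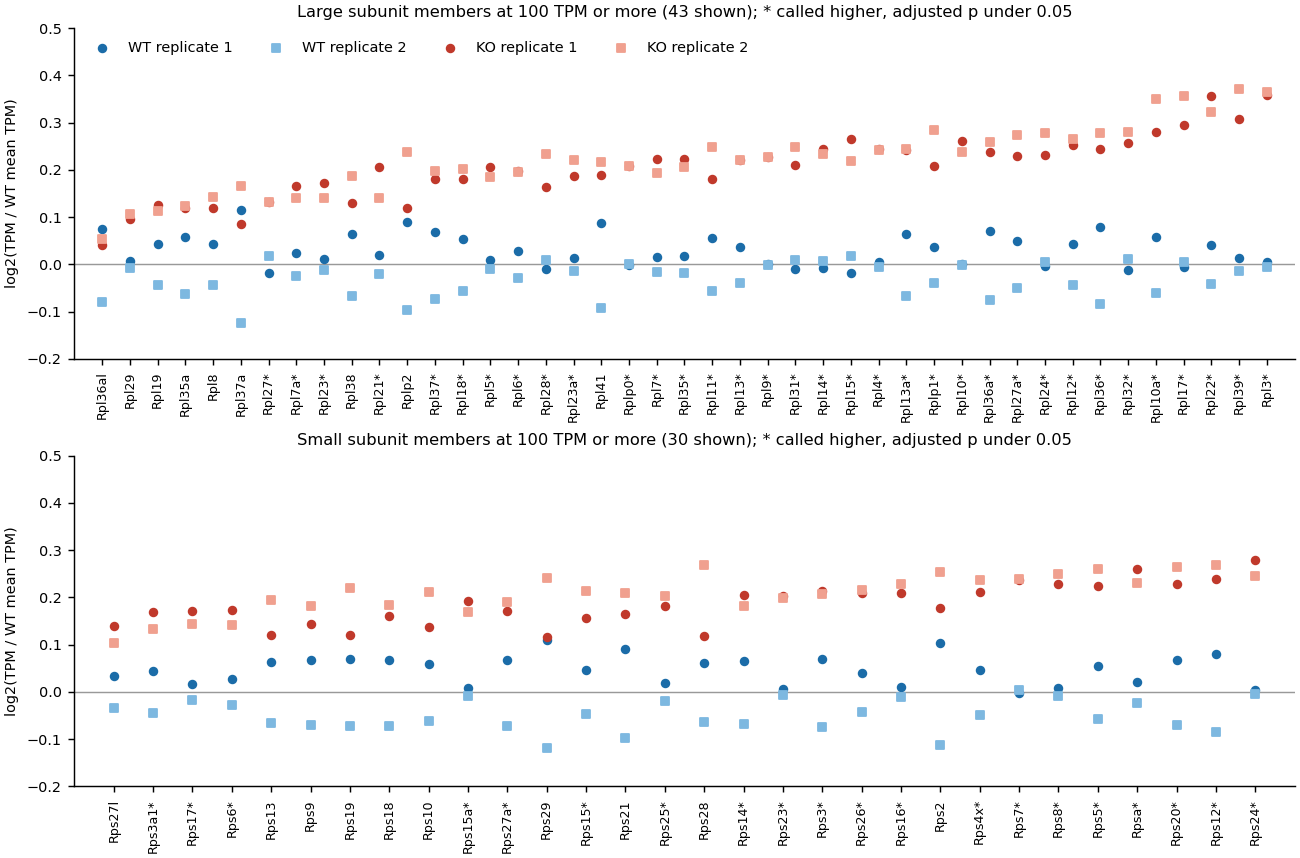
Level of 73 of the 75 members with a mean of at least 100 TPM in the 4 libraries, as log2 of TPM over the WT mean, with 43 large subunit members in the upper panel and 30 small subunit members in the lower, ordered by mean change. Knockout-labelled libraries (red) lie above both WT libraries (blue) for 71 of the 73 members shown, and an asterisk marks the 54 that rose.

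Most members were expressed at a high level. A mean of at least 100 TPM over the 4 libraries was reached by 75 members, and 62 exceeded 1000 TPM. Their means ran from 150 TPM for Rps15a to 4854 TPM for Rpl41, which encodes the smallest ribosomal protein, with a median of 2156 TPM. The 10 highest were Rpl41, Rpl28, Rpl32, Rps18, Rpl12, Rplp1, Rps23, Rpl10, Rps3a1 and Rps9. Rpl41 was at 4796 and 4231 TPM in WT and at 5147 and 5242 TPM in the group labelled knockout. These groups did not overlap, but the WT libraries lay farther from each other than the higher of them from the knockout-labelled libraries, and the log2 change of 0.21 (SE 0.064) did not pass (limma, adjusted p = 0.061). Among the other 9, 7 rose by 0.15 (Rps3a1) to 0.27 (Rpl32) on the log2 scale, while Rps18 (0.17, adjusted p = 0.058) and Rps9 (0.16, adjusted p = 0.068) did not pass.

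Across the 75 abundant members the ratio of group means ran from 1.03 for Rpl36al to 1.29 for Rpl3, with a median of 1.16. The lower and upper quartiles of the log2 changes were 0.18 and 0.25 and their SD was 0.057, beside a median SE of 0.040 for the change of a gene. All 56 rises and 19 of the 22 members that did not pass belonged to this abundant set. Their annotated promoters can be read for what the genes have in common. RefSeq promoter windows, 250 bases before to 50 after the transcription start on GRCm38.p6, matched 63 of the 84 members and 56 of the abundant ones. The windows from 50 bases before to 25 after the start follow for 4 genes of high level (Rpl41, Rpl28, Rps18, Rpl12) and 4 of large rise (Rpl39, Rps12, Rpl24, Rpl27a), each the leading genes with 1 promoter entry. Capitals mark the longest run of C or T between 10 bases before and 25 after the start.
Rpl41, chr10:128549144-128549218, minus strand: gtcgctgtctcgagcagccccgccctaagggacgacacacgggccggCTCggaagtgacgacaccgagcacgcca
Rpl28, chr7:4792915-4792989, plus strand: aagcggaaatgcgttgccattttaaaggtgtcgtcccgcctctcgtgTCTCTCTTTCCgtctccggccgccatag
Rps18, chr17:33955641-33955715, minus strand: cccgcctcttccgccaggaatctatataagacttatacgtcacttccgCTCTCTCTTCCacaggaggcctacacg
Rpl12, chr2:32961662-32961736, plus strand: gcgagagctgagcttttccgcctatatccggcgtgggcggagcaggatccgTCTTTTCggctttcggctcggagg
Rpl39, chrX:37085198-37085272, minus strand: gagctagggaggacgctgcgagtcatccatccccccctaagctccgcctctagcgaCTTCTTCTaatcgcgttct
Rps12, chr10:23787185-23787259, minus strand: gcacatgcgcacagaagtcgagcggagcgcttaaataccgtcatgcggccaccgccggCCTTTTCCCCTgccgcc
Rpl24, chr16:55966225-55966299, plus strand: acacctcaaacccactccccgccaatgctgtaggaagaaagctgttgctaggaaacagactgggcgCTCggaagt
Rpl27a, chr7:109519145-109519219, plus strand: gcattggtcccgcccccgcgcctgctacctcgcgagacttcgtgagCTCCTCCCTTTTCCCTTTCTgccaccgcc

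The pyrimidine run around the start was 20 bases long in Rpl27a, 11 in Rpl28, Rps18 and Rps12, 8 in Rpl39, 7 in Rpl12 and 3 in Rpl41 and Rpl24. A run of at least 8 was found for 41.1% of the 56 abundant members with a window and for 14.9% of all 27025 genes in the promoter table. The letters CTTTC on the gene strand in the same stretch, which a pyrimidine run can contain, were found for 23.2% and 5.12%. Searched on both strands of the whole window, CCGGAAG, which contains the core that ETS factors bind, was present for 41.1% of the abundant members and 9.93% of all genes. TCGCGAGA was present for 17.9% and 1.13%, and AAGATGGC, a form of the YY1 motif, for 7.14% and 3.19%. The reverse complement of CCGGAAG can overlap a pyrimidine run. Of the genes printed, Rpl41, Rps18, Rpl39 and Rpl27a hold CCGGAAG within the whole window and Rpl12 and Rpl27a hold TCGCGAGA. These matches describe the annotated windows, and binding was not measured.

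In the large subunit, 35 of 48 tested members rose, against 18.9% of all genes, 12 did not pass and Rpl39l was called lower. The largest rise of all members was in Rpl3, a core protein that reaches toward the peptidyl transferase centre (chr15:80077791-80091868, minus strand, GRCm38). Rpl3 was at 2204 and 2191 TPM in WT and at 2819 and 2829.8 TPM in the group labelled knockout. The libraries of each group were nearly equal and the groups were far apart, with a log2 change of 0.36 (SE 0.031, limma, adjusted p = 0.0014). Its rise passed in each fit that left out a library, and with spike-in scaling it was 0.25 and did not pass (adjusted p = 0.13).

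Rpl39, a very short protein that lines the tunnel through which the nascent chain leaves, was at 1624 and 1592 TPM in WT and at 1989.9 and 2081 TPM in the group labelled knockout. Rpl17, which also faces the tunnel, was at 1354 and 1364 TPM and then at 1666 and 1739 TPM. Neither gene's groups overlapped, and the log2 changes were 0.34 (SE 0.037, limma, adjusted p = 0.0028) and 0.33 (SE 0.035, adjusted p = 0.0028). Rpl4, whose loop forms part of the tunnel's narrowing, rose by 0.24 (adjusted p = 0.0046).

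Rpl22, an RNA-binding protein at the surface of the large subunit that is needed for T cell development, was a lower-expressed member with a large rise. It was at 319 and 302 TPM in WT and at 398 and 388 TPM in the group labelled knockout, which did not overlap, a log2 change of 0.34 (SE 0.039, limma, adjusted p = 0.0034). Rpl10a, the protein of the mobile L1 stalk beside the exit site for transfer RNA, was at 1716 and 1581 TPM and then at 2000.3 and 2100.1 TPM. It rose by 0.32 (SE 0.051, limma, adjusted p = 0.0093), with a wider spread in both groups. Further rises among the 12 largest included Rpl32 (0.27), Rpl36 (0.26), Rpl12 (0.26), Rps24 (0.26) and Rps12 (0.26).

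The stalk that recruits elongation factors is built on Rplp0 and Rpl12 and carries the acidic proteins Rplp1 and Rplp2. Rplp0 was at 2675 and 2676 TPM in WT and at 3089 TPM in each knockout-labelled library. No spread was visible within either group, and its log2 change was 0.21 (SE 0.031, limma, adjusted p = 0.0072). Rpl12 and Rplp1 rose by 0.26 and 0.25. Rplp2 was at 1756 and 1541 TPM in WT and at 1791 and 1943 TPM in the group labelled knockout. Its groups did not overlap, but WT replicate 1 was close to knockout-labelled replicate 1 and the change of 0.18 (SE 0.073) did not pass (limma, adjusted p = 0.12).

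Rpl5 and Rpl11, which with the smallest ribosomal RNA of the large subunit bind Mdm2 and so stabilise p53, rose by 0.20 (limma, adjusted p = 0.0086) and 0.22 (adjusted p = 0.028). Rpl10, which joins the subunit late in assembly, rose by 0.25 (adjusted p = 0.0046), and Rpl13a, part of the interferon-gamma activated inhibitor of translation, by 0.25 (adjusted p = 0.018). Rpl38, known for its effect on translation of Hox mRNAs, was at 1592 and 1453 TPM in WT and at 1665 and 1734 TPM in the group labelled knockout, a change of 0.16 that did not pass (adjusted p = 0.070). The smallest changes among the abundant large subunit members were in Rpl36al (0.05, or -0.067 with spike-in scaling), Rpl29 (0.10, or -0.015 with spike-in scaling), Rpl19 (0.12, or -0.050 with quantile normalization) and Rpl35a (0.12), none of which passed.

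In the small subunit, 21 of 32 tested members rose, against 18.9% of all genes, 10 did not pass and Rps4l was called lower. The largest rise was in Rps24, a gene mutated in Diamond-Blackfan anemia, at 2116 and 2101 TPM in WT and at 2559 and 2499.7 TPM in the group labelled knockout. Its groups did not overlap, and its log2 change was 0.26 (SE 0.032, limma, adjusted p = 0.0041). Rps12, a protein of the head of the small subunit, was at 2129.7 and 1900.2 TPM and then at 2378 and 2426 TPM, a rise of 0.26 (SE 0.059, limma, adjusted p = 0.026). Its groups were apart although WT replicate 1 was nearly as far from WT replicate 2 as from the knockout-labelled libraries.

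Proteins around the decoding site and the mRNA channel did not all pass. Rps23, at the decoding centre, rose by 0.20 (limma, adjusted p = 0.0086), Rps15 by 0.19 (adjusted p = 0.031) and Rps3, at the entry of the mRNA channel, by 0.21 (adjusted p = 0.033). Rps2, which lies beside Rps3, was at 702 and 604 TPM in WT and at 738 and 778 TPM in the group labelled knockout. The groups did not overlap, but WT replicate 1 was nearer to the knockout-labelled libraries than to WT replicate 2, and the change of 0.22 (SE 0.075) did not pass (adjusted p = 0.079). Rps6, the substrate of S6 kinase, rose by 0.16 (adjusted p = 0.025), and Rpsa, also known as a laminin receptor, by 0.25 (adjusted p = 0.0060).

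Some small subunit proteins are made as fusions. Rps27a, fused to ubiquitin, was at 2396 and 2175 TPM in WT and at 2575 and 2608 TPM in the group labelled knockout. Its groups did not overlap, and it rose by 0.18 (limma, adjusted p = 0.049). Fau, which lies outside the name rule and carries a ubiquitin-like domain, had a change of 0.14 that did not pass (adjusted p = 0.062).

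The median log2 change was 0.21 for the large and 0.19 for the small subunit, and 72.9% and 65.6% of tested members rose, against 18.9% of all genes. With trimmed-mean scaling 23 of 48 large and 8 of 32 small subunit members rose, against 14.4% of all genes. With quantile normalization 23 and 7 rose, against 16.1% of all genes. The small subunit had the larger share in other settings. Without members and spike-ins in the total, 41 of 48 large and 30 of 32 small subunit members rose, against 26.8% of all genes. With the crossed replicate block, chosen after the data were seen, 39 of 48 and 29 of 32 rose, against 18% of all genes. The difference between the subunits was not tested. Summed large subunit TPM were 8.34% and 7.98% of the total in WT and 9.45% and 9.59% in the group labelled knockout, a ratio of means of 1.17. Small subunit TPM were 6.35% and 5.98% and then 7.02% and 7.13%, a ratio of 1.15. The ratio of large to small subunit TPM was 1.31 and 1.34 in WT and 1.35 and 1.34 in the group labelled knockout. The knockout-labelled values were the higher, but the gap between the WT libraries was larger than that between WT replicate 2 and either of them. The large subunit median was above the small subunit median in all 22 settings tried, but many of these could not change that order. Settings that alter only the test keep both medians, and a new total shifts both nearly alike. Quantile normalization, which can change the order, gave 0.12 and 0.093, and removal of GC and length trends gave 0.23 and 0.21. Leaving out WT replicate 1, which can change it too, brought the medians to 0.248 and 0.243.

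**Figure D2:**
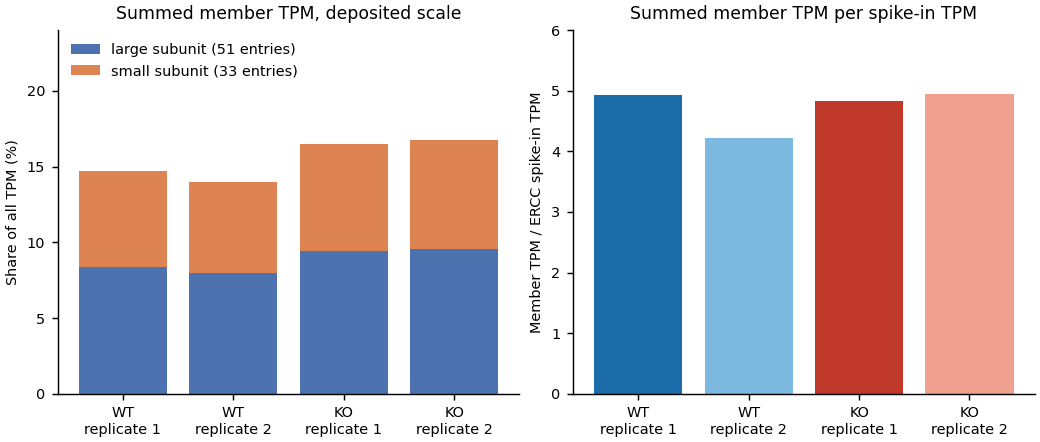
Summed TPM of the members in each library, on the left as percent of all TPM split into large (51 entries) and small subunit (33 entries), on the right divided by the summed TPM of the ERCC spike-ins. On the left both knockout-labelled libraries (16.5% and 16.7%) stand above both WT libraries (14.7% and 14.0%), and on the right WT replicate 1 (4.93) stands above knockout-labelled replicate 1 (4.83).

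How far the members rose depended on what the libraries were scaled to. Divided by the spike-in total, the summed members stood at 4.93 and 4.23 in WT and at 4.83 and 4.94 in the group labelled knockout, so that the groups overlapped. With every gene scaled to the spike-ins, the median of all genes moved by -0.11 to -0.07 and the median of the members was 0.09. The members were 0.16 above all genes, against 0.17 as deposited, a gap that a common factor per library leaves nearly unchanged. In that scaling 0 of 80 members rose by limma, with 3 at an unadjusted p under 0.05, and 75 members had a positive change. Rpl39l and Rps4l were called lower, in the direction that the filter had fixed. Of all genes 631 rose and 1477 fell with the spike-ins, against 2237 and 1369 as deposited. The sources used here do not say whether spike-ins were added per cell or per amount of RNA.

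Counts and medians under further totals were as follows. Trimmed-mean scaling gave 31 members that rose with a median of 0.16 (1708 of all genes rose and 1833 fell), and quantile normalization gave 30 with a median of 0.12 (1903 of all genes rose and 1608 fell, with a median of 0.015). Without the granulocyte maturation list in the total, 42 members rose, with a median of 0.16 (1636 of all genes rose and 1735 fell), and the median of all genes was 0.00069. The summed share of the members was 2.40 percentage points higher in the group labelled knockout without the spike-ins in the total, and 2.01 points higher without both the spike-ins and the list. Without the members themselves and the spike-ins in the total, 71 rose, with a median of 0.25 (3176 of all genes rose and 1126 fell). Rn45s, the precursor of ribosomal RNA that a poly(A) library holds as carry-over, took 0.570% and 0.435% of all TPM in WT and 1.43% and 0.881% in the group labelled knockout. Rescaled without Rn45s and the spike-ins, 61 members rose, with a median of 0.22 (20.6% of all genes rose).

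**Figure D3:**
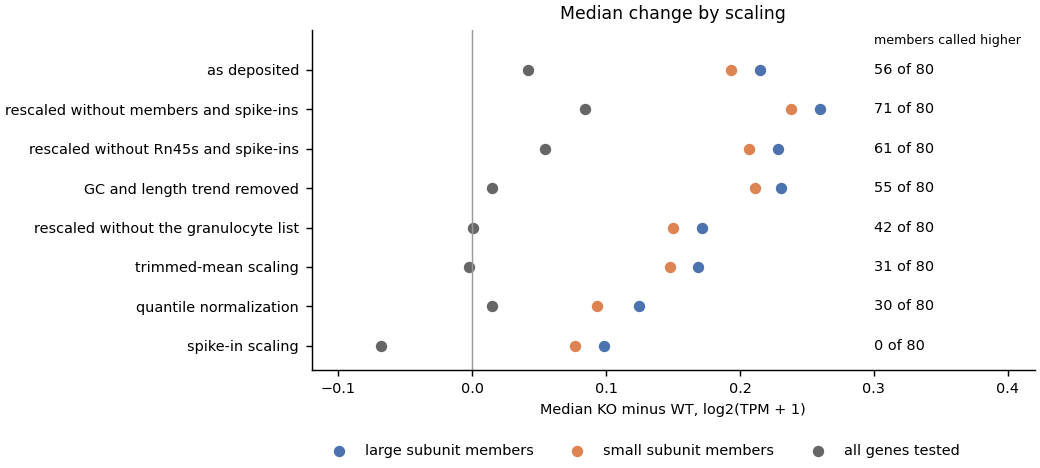
Median change (knockout-labelled minus WT, log2(TPM + 1)) of large subunit members, small subunit members and all genes tested under 8 scalings, with the number of members called higher of 80 at the right. The members lie to the right of all genes in each scaling, while the count ranges from 0 with the spike-ins to 71 without the members and spike-ins in the total. A new total shifts members and all genes nearly alike, so only quantile normalization and the trend removal could change that order.

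The WT libraries did not agree equally well for short and long members. Lengths are those of the transcript chosen for each gene from the annotation, which need not be the form expressed. Rps15a, for example, stood at 5179 nt and Rps20 at 3706 nt. WT replicate 1 was above WT replicate 2 for 63 of the 75 abundant members, while knockout-labelled replicate 1 was above replicate 2 for 27. In the 21 members with annotated transcripts under 600 nt the median difference between the WT libraries was 0.13 on the log2 scale, in the 30 from 600 to under 1000 nt it was 0.079 and in the 24 of at least 1000 nt it was 0.022. Other genes of at least 100 TPM showed medians of 0.061, 0.033 and -0.024 in the same classes. Across the 75 members the log2 transcript length correlated with the WT difference at a Pearson's r of -0.336 (Spearman's rho -0.385) and with the difference between the knockout-labelled libraries at 0.398 (rho 0.395), as a description of genes that share the same libraries.

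The change between groups varied less with length. Its median was 0.19 in the short, 0.21 in the middle and 0.22 in the long class, with an r of 0.161 (rho 0.188) over the 75 members. The share that rose was 47.6%, 76.7% and 95.8%, and the median SE was 0.053, 0.040 and 0.033. Among other genes of at least 100 TPM the shares that rose were 24%, 18.8% and 26.3%. Short members such as Rps29 (0.18, SE 0.084), Rps28 (0.19, SE 0.066), Rps21 (0.19, SE 0.066) and Rpl38 (0.16, SE 0.052) thus failed the test at changes near those at which long members such as Rpl5 (0.20, SE 0.031) passed. With the trend of each library with GC content and length removed, 55 members rose, with a median of 0.22 (16.2% of all genes rose).

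**Figure D4:**
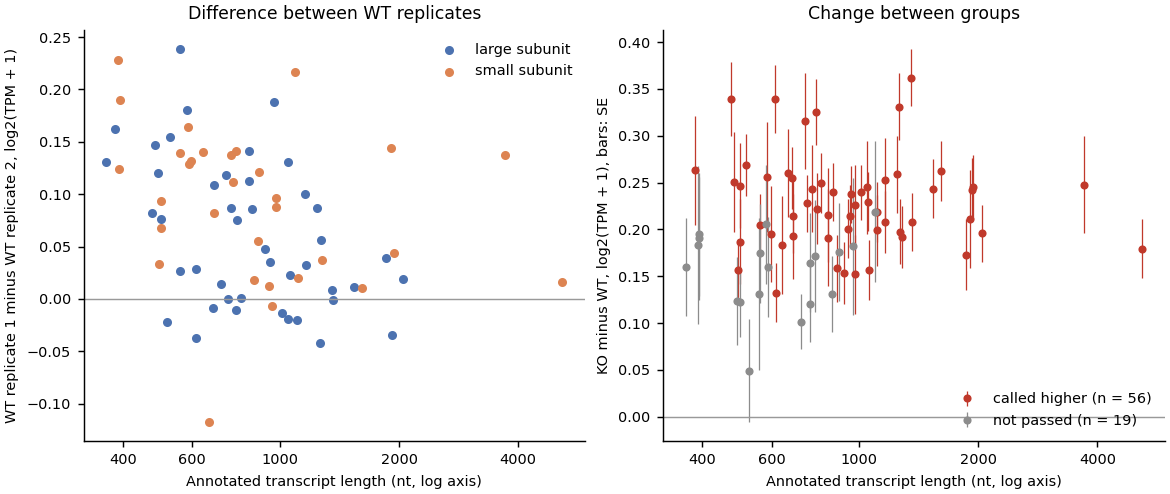
Annotated transcript length (nt, log axis) of the 75 abundant members against the difference between the WT libraries (left, by subunit) and against the change between groups with its SE (right, 56 that rose in red and 19 that did not pass in grey). Differences between the WT libraries lie mostly above 0 and are larger for short transcripts, while changes between groups lie between 0.05 and 0.36.

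Rpl39l, a paralog of the tunnel protein Rpl39 known from testis (chr16:10170226-10174911, plus strand, GRCm38), was at 1.56 and 2.37 TPM in WT and at 0.12 TPM and listed at 0 in the knockout-labelled libraries. Rps4l, annotated as a transcribed processed pseudogene and 79.9% identical to Rps4x in its coding sequence (chr6:148354656-148355598, plus strand), was at 1.68 and 1.29 TPM and then at 0.21 and 0.18 TPM. Both were called lower, with log2(TPM + 1) changes of -1.47 (SE 0.19, limma, adjusted p = 0.0048) and -1.05 (SE 0.16, adjusted p = 0.0075), while Rpl39 and Rps4x rose by 0.34 and 0.23. Both paralogs, like Rpl3l, reached the filter of 1 TPM only through the WT libraries, so a call in the other direction could not have been made at these levels. The number of reads behind values this low is unknown, and a pseudocount of 0.1 gave -3.77 and -2.42. A filter of 5 TPM left both untested. Without either knockout-labelled library Rps4l did not pass (adjusted p = 0.053 and 0.054), and Rpl39l did.

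Rpl3l, which replaces Rpl3 in heart and skeletal muscle, was at 1.25 and 1.40 TPM in WT and at 0.84 and 0.37 TPM in the group labelled knockout. The groups did not overlap, and its change of -0.55 did not pass (limma, adjusted p = 0.079). Rpl10l, a retrogene of Rpl10 known from testis, was listed at 0 in 3 libraries and at 0.09 TPM in knockout-labelled replicate 1. Against the expression of their parents these paralogs were minor: the highest share of a pair in any library was 0.149% for Rpl39l, 0.0639% for Rpl3l and 0.0638% for Rps4l.

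Other paralogs were expressed at levels comparable with their parents. Rpl22l1, outside the name rule, was at 379 and 343 TPM in WT and at 404 and 429.5 TPM in the group labelled knockout, a rise of 0.21 (SE 0.058, limma, adjusted p = 0.046) that was not called with trimmed-mean or spike-in scaling. It held 54.3% and 53.2% of the TPM of Rpl22 and Rpl22l1 in WT and 50.4% and 52.5% in the group labelled knockout, lower without overlap. Rpl36al, 87.7% identical to Rpl36a in its coding sequence, was at 775 and 696 TPM in WT and at 756 and 763 TPM in the group labelled knockout. It overlapped between the groups, while Rpl36a was at 1663 and 1502 TPM and then at 1867 and 1895 TPM and rose by 0.25 (adjusted p = 0.022). The share of Rpl36al in this pair was 31.8% and 31.7% in WT and 28.8% and 28.7% in the group labelled knockout. Its spread within either group was far smaller than the gap, but an exact permutation test (two-sided) on 2 and 2 libraries cannot go below p = 0.333. Rps27l, a p53 target related to Rps27, had a change of 0.12 (limma, adjusted p = 0.058). Rpl7l1, a factor of large subunit assembly related to Rpl7, had one of -0.10 (adjusted p = 0.11). Neither passed as deposited. With trimmed-mean scaling, and without the granulocyte maturation list in the total, Rpl7l1 was called lower.

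Of the 84 members, 4 stayed below the filter, and beside Rpl10l these are core ribosomal protein genes listed at or near 0. Rpl26 and Rps27 were listed at 0 in all 4 libraries, and Rpl30 was at 1.92 TPM in WT replicate 1 and listed at 0 in the others. Each has an entry elsewhere in the table with nearly the same coding sequence, most of them processed pseudogenes in the GENCODE M21 annotation, and that entry carried values in the range of the other members. Gm15772 (chr5:3236431-3236868, plus strand, GRCm38), 99.5% identical to Rpl26 over 435 coding bases, was at 2820.2 and 2682 TPM in WT and at 3141 and 3122 TPM in the group labelled knockout. Gm12191 (chr11:49678710-49679057, minus strand), 99.7% identical to Rpl30 over 345 bases, was at 1466 and 1309 TPM and then at 1607 and 1656 TPM. Rps27rt (chr9:114982366-114982739, minus strand), identical to Rps27 over all 252 bases, was at 1922 and 1941 TPM and then at 2300.4 and 2352 TPM. Each copy's groups were apart, with the knockout-labelled libraries higher.

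Rpl34 was kept at a low level, 21.9 and 11.3 TPM in WT and 24.5 and 22.8 TPM in the group labelled knockout, and its change of 0.55 (SE 0.27) did not pass (limma, adjusted p = 0.18). Its copy Rpl34-ps1 (chr6:71124610-71124963, plus strand), 99.4% identical over 351 bases, was at 1597 and 1496 TPM and then at 1785 and 1753 TPM. The sequences show how little separates a member from its copy. Each line gives 41 coding bases centred on a difference, with the differing base in capitals, from the member and then from the copy. Positions are counted from 1 at the A of the start codon, with the member's base first.
Rpl26, C177T, member: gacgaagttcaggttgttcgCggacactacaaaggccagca
Gm15772, C177T, copy: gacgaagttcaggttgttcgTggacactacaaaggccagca
Rpl26, T288C, member: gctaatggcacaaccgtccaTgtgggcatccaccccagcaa
Gm15772, T288C, copy: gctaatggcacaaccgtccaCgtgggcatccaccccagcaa
Rpl30, G96A, member: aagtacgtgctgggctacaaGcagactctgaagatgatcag
Gm12191, G96A, copy: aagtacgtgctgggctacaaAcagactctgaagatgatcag
Rpl34, T132C, member: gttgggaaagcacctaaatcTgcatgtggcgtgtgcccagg
Rpl34-ps1, T132C, copy: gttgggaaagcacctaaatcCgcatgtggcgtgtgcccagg
Rpl34, C318G, member: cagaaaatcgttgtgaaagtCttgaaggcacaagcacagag
Rpl34-ps1, C318G, copy: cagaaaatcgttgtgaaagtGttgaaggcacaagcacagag
The coding sequence that Rps27 and Rps27rt share in full, without the stop codon, is the next line, and it has no differing base to mark.
Rps27 and Rps27rt: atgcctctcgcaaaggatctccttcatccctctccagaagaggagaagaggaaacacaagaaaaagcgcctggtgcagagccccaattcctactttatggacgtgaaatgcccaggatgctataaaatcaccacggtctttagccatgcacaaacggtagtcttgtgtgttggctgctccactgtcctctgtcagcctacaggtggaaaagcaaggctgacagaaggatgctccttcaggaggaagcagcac

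Another 4 members shared their level with a near-identical entry. Rpl14 held 46.4% to 48.5% of its sum with Rpl14-ps1 over the 4 libraries, Rpl31 held 36.4% to 39.8% with Rpl31-ps12, Rpl37 held 64.3% to 65.5% with Rpl37rt, and Rps15a held 25.3% to 27.5% with Rps15a-ps6 and Rps15a-ps4. Reads from such copies cannot be told apart by the parts that are identical, so how an estimator divided them between entries is uncertain for these 8 genes. Summing a member and its copies avoids the choice between entries, although reads are divided by transcript length, so the sum still shifts with that choice where annotated lengths differ. In log2 units the sums changed by 0.19 for Rpl26, 0.24 for Rpl30, 0.20 for Rpl34, 0.27 for Rps27, 0.25 for Rpl14, 0.19 for Rpl31, 0.17 for Rpl37 and 0.21 for Rps15a. With the copies added to their members, 83 members were tested, with a median of 0.21. Of these 59 rose, against 18.9% of all genes. The 2 called lower, against 11.6% of all genes, were Rpl39l and Rps4l, whose direction the filter had fixed. Rpl32l, an annotated pseudogene 96.0% identical to Rpl32, was at 34.1 and 26.8 TPM in WT and at 27.9 and 46.5 TPM in the group labelled knockout, which overlapped.

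**Figure D5:**
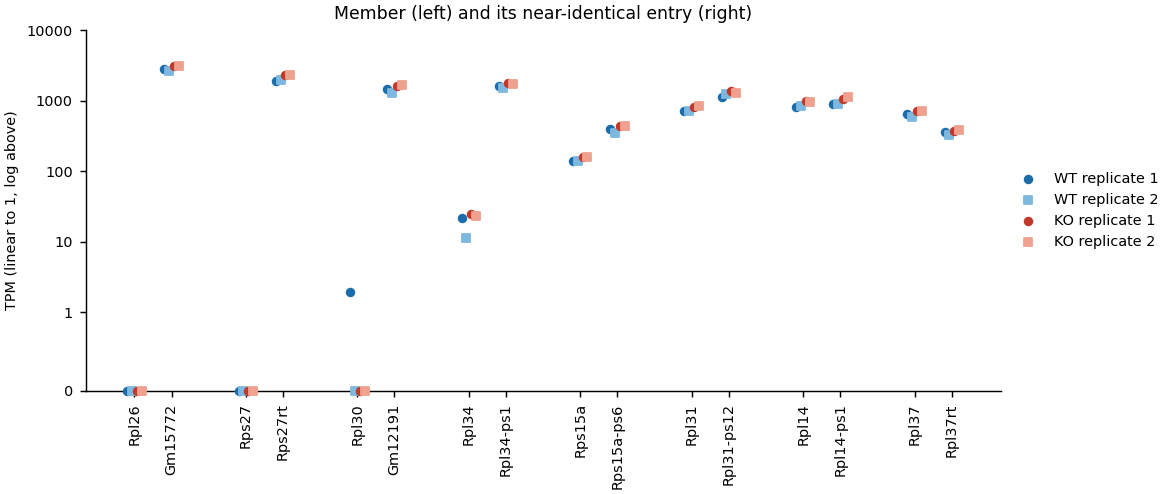
TPM in the 4 libraries (linear to 1, log scale above) of 8 members, each on the left of a pair, and of its near-identical entry on the right. Rpl26, Rps27 and Rpl30 lie at or near 0 while their copies lie between 1309 and 3141 TPM, and Rpl34 lies near 20 TPM with its copy between 1496 and 1785 TPM.

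Members tied to blood disease followed the rest. Of 20 genes mutated in Diamond-Blackfan anemia, 18 were tested, 13 rose, against 18.9% of all genes, 5 did not pass and the median was 0.20, against 0.04 for all genes. Rpl26 and Rps27 are the pair not tested. Rps19, the gene most often mutated in that disease, was at 1776 and 1610.1 TPM in WT and at 1839 and 1972 TPM in the group labelled knockout. Its groups did not overlap and its change of 0.17 (SE 0.060) did not pass (limma, adjusted p = 0.084). All 6 genes listed as deleted or mutated in blood cancers rose as deposited, Rpl22 by 0.34, Rpl10 by 0.25, Rpl11 by 0.22, Rpl5 by 0.20, Rps14 by 0.20 and Rps15 by 0.19. Rps14, whose loss marks the 5q deletion syndrome, was at 2448 and 2234 TPM in WT and at 2701 and 2654 TPM in the group labelled knockout. With trimmed-mean scaling 3 of the 6 rose, against 14.4% of all genes, and with spike-in scaling 0 did by limma, against 5.33%.

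A further list held genes with TOP mRNAs that encode no ribosomal protein, among them elongation and initiation factors. Of 19 tested, 14 rose, against 18.9% of all genes, and 0 fell, and the median was 0.27, against 0.04 for all genes. Npm1, a nucleolar chaperone of ribosome assembly, was at 1151 and 1167 TPM in WT and at 1504 and 1452 TPM in the group labelled knockout, a change of 0.35 (limma, adjusted p = 0.0020). Nap1l1 (0.34), Eef1g (0.32) and Eef2 (0.30) rose as well. With spike-in scaling the median of this list was 0.15 and 0 of its genes rose by limma, against 5.33% of all genes.

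Among 17 genes that control translation of these mRNAs, 3 rose, a share near the 18.9% of all genes, Eif4ebp1 by 0.37 (limma, adjusted p = 0.0011), Eif4ebp2 by 0.16 and Rptor by 0.18. The median of the list was 0.02, or -0.02 with trimmed-mean and -0.09 with spike-in scaling. The first pair are repressors of cap-dependent translation that mTOR switches off, and Rptor is the mTOR subunit that binds them. Larp1, at 112 to 116 TPM, and Mtor, at 17.4 to 18.7 TPM, overlapped between the groups. Of 17 chaperones, importins and assembly factors of ribosomal proteins, 5 rose and 3 fell, against 18.9% and 11.6% of all genes, with a median of 0.02, or -0.03 with trimmed-mean and -0.10 with spike-in scaling. Nap1l1 stands in this list as well as in that of TOP mRNAs. The importin Ipo7 rose by 0.35 (adjusted p = 0.0019), and the assembly factors Rrs1 (-0.46, adjusted p = 0.0047), Bop1 (-0.28) and Mrto4 (-0.16) fell. With spike-in scaling 0 of the 17 control genes rose and 1 fell by limma, and 0 of the 17 chaperones rose and 2 fell. Of all genes 5.33% rose and 12.5% fell in that scaling, so nothing is read from these counts.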

How the data were processed

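The authors deposited 1 table of TPM for 4 libraries, with a symbol per entry. The unit was read from the values, which add up to 1000000 per library. STAR, RSEM and mm10 were used per the submitters' processing notes. Versions, annotation and strand setting are not given in the sources used here. RSEM divides reads shared by similar transcripts between entries by estimation, so values of near-identical copies are uncertain, and a value of 0 can come from a failed estimate. Of 24589 entries, 92 are ERCC spike-ins and 27 are symbols turned into dates, which were not named. TPM keep no read depth, so no counting interval was given.

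Spike-ins were left out, and genes had to reach 1 TPM in 2 or more libraries. The 11837 kept were compared on log2(TPM + 1), with a pseudocount of 1, by limma 3.58.1 (R 4.3.3) with a variance trend. This scale understates changes of low genes. The fit used all 4 libraries and no replicate block, with 2 residual and 3.51 prior degrees of freedom. Two-sided p were adjusted over all genes tested by the Benjamini-Hochberg method, and an adjusted p under 0.05 was called. An exact permutation test of 2 against 2 libraries cannot go below p = 0.333. The step was tested on simulated data. Across kept genes Pearson's r was 0.992 within groups and 0.979 to 0.982 between them. Deviations of same-numbered libraries from their group means were only weakly and negatively correlated (r = -0.114), and the numbers were not taken as pairs.

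The members and gene lists were chosen with earlier results of these data known. A few genes counted here are not reported by name. Named genes are members, their paralogs, and up to 4 genes of each list with the smallest p. Larp1, Mtor, Bop1 and Mrto4 were named after their values were seen. Transcript length, GC content, coding sequences and coordinates came from GENCODE mouse release 21 (GRCm38), which matched all 84 members and 97.4% of kept genes. The transcript of each gene was chosen by its rank in the annotation, not by its expression. Near-identical entries had at least 90% identity over at least 80% of the coding sequence (blastn 2.17.0). Promoter windows came from RefSeq (GRCm38.p6). Alternatives were trimmed-mean scaling of the TPM, a replicate block, quantile normalization, spike-in scaling, totals without members or granulocyte genes, removal of GC and length trends, no filter, a 5 TPM filter, pseudocounts of 0.1 and 5, no trend, robust variances, an adjusted p under 0.01 and leaving out each library. The crossed block, the added copies and the total without Rn45s were chosen after seeing the data.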

Additional observations from a re-analysis of the deposited data

How the results depend on the processing

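With 2 libraries per group, the number of members that rose (56 of 80 as deposited) varied with the setting. It was 36 with no variance trend (14.9% of all genes higher), 26 with no filter (9.14%), 26 at an adjusted p under 0.01 (with 839 of all genes higher and 666 lower), 30 with quantile normalization, 31 with trimmed-mean scaling and 0 with spike-in scaling (631 of all genes higher). The median change of members was 0.12, 0.16 and 0.090 in these last 3 scalings and 0.25 without members and spike-ins in the total. A filter of 5 TPM left 0 members called lower, because Rpl39l and Rps4l were removed. Leaving out each library in turn gave 3 to 73 members that rose and 1 to 2 called lower, with 500 to 1910 of all genes higher and 515 to 995 lower. With the replicate number as a block, 47 members rose and 2 were called lower (1888 and 1183 of all genes). Crossing the pairs, a choice made after the data were seen, gave 68 and 2 (2136 and 1327). Pseudocounts of 0.1 and 5 each gave 56 and 2 (2212 and 1356 of all genes with 0.1, 2239 and 1368 with 5). The sign turned for members that had not passed: Rpl19 (-0.050) and Rpl8 (-0.019) with quantile normalization, Rpl29 (-0.015) with spike-in scaling, Rpl36al with spike-in scaling (-0.067) and without WT replicate 2 (-0.028 to 0.13 over the libraries left out), and Rpl32l without knockout-labelled replicate 2 (-0.11 to 0.61). It also turned for Rps3a1, which had passed, with quantile normalization (-0.040). The cause was not tested. Depth is unknown, so what it limits cannot be given.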
